A study of Mus musculus with 8 samples.

Results

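The receptors with which skeletal cells hold on to their matrix were examined in SSCs and BCSPs sorted from healing mouse fractures. They comprise the integrins, the syndecans, the glypicans and the discoidin domain receptors, 36 genes with 88 probe sets, out of 18193 genes and 45037 probe sets measured. Genes entered by symbol alone, as every probe set annotated with exactly 1 symbol of these families. The 2 other symbols of the families, Itga11 (collagen-binding) and Itgad (leukocyte), had no such probe set and were not analysed here. The samples were 4 arrays of SSCs, the skeletal stem cells at the top of the mouse skeletal lineage (sorted as CD51-positive, CD200-positive and CD105-negative cells), and 4 arrays of BCSPs, the bone, cartilage and stroma progenitors downstream of them (sorted as CD51-positive and CD105-positive cells), and both sorts excluded cells with CD45, Ter119, Tie2, Thy1 or 6c3. All 8 came from uncultured callus cells of male C57/Bl6 mice aged 10 to 12 weeks with a pinned bicortical femoral fracture, taken at day 7 by the labels (a later day is given in the methods). Each of 4 experiments supplied 1 SSC and 1 BCSP array from 10000 sorted cells per population. The labels do not say whether mice were pooled, while a figure legend describes the calluses as those of different mice.

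Integrins are heterodimers of an alpha and a beta chain that bind matrix proteins outside the cell and, through adaptors such as talin and kindlin, the actin cytoskeleton inside it. The alpha chain largely sets the ligand: one group binds collagens, another laminins, another the RGD tripeptide of fibronectin and vitronectin, and a group restricted to white blood cells binds ligands on other cells. Syndecans span the membrane and glypicans are tied to it by a lipid anchor. Both carry heparan sulfate chains that hold growth factors, and glypicans are known regulators of hedgehog and Wnt signalling in growth plate cartilage. The discoidin domain receptors are receptor tyrosine kinases for collagen. In a fracture callus, collagen and fibronectin make up much of the matrix that these cells build and meet.

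Every value is an activity score in points. It runs from about -100 to about 100 and says where a probe set stands in the range that same probe set covers among many public mouse arrays, 0 being the point that divides its low from its high values. The score levels off at both ends and does not rank the mRNA amounts of different genes, so differences are given in points and never as folds. Between 29.0% and 31.0% of probe sets lay above 0 on an array. Of the sort markers, Itgav (CD51) and Cd200 were above 0 on all 8 arrays, Eng (CD105) on no SSC array and 2 BCSP arrays, and the 4 excluded markers Ptprc (CD45), Enpep (6c3), Thy1 and Tek (Tie2) on none. Cartilage markers (6 of 6) and bone markers (4 of 4) were above 0 on all arrays. As these are bulk samples, fewer cells of a type and less RNA per cell cannot be told apart.

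Of the 36 receptor genes, 16 (44.4%) scored above 0 on all 8 arrays, against 25.0% of all genes, and 16 scored above 0 on no array, against 43.5% of all genes. The remaining 4 were Itga5 (6 arrays), Itgb3 (4 arrays), Itga2 and Itga8 (1 array each). A gene was represented by its highest-scoring probe set, and receptor genes had more probe sets (2.44 per gene, against 1.92 over all genes). When probe sets were averaged per gene, 11 receptor genes (30.6%) were above 0 throughout, against 16.2% of all genes. By ligand class, above 0 on all arrays were 4 of 5 collagen-binding receptors, 1 of 4 laminin-binding chains, 2 of 8 RGD-binding chains, 4 of 4 syndecans, 4 of 6 glypicans and the shared beta 1 chain. The alpha 4 and alpha 9 chains (0 of 2) and the leukocyte integrins (0 of 6) stayed below 0 on every array.

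**Figure D1:**
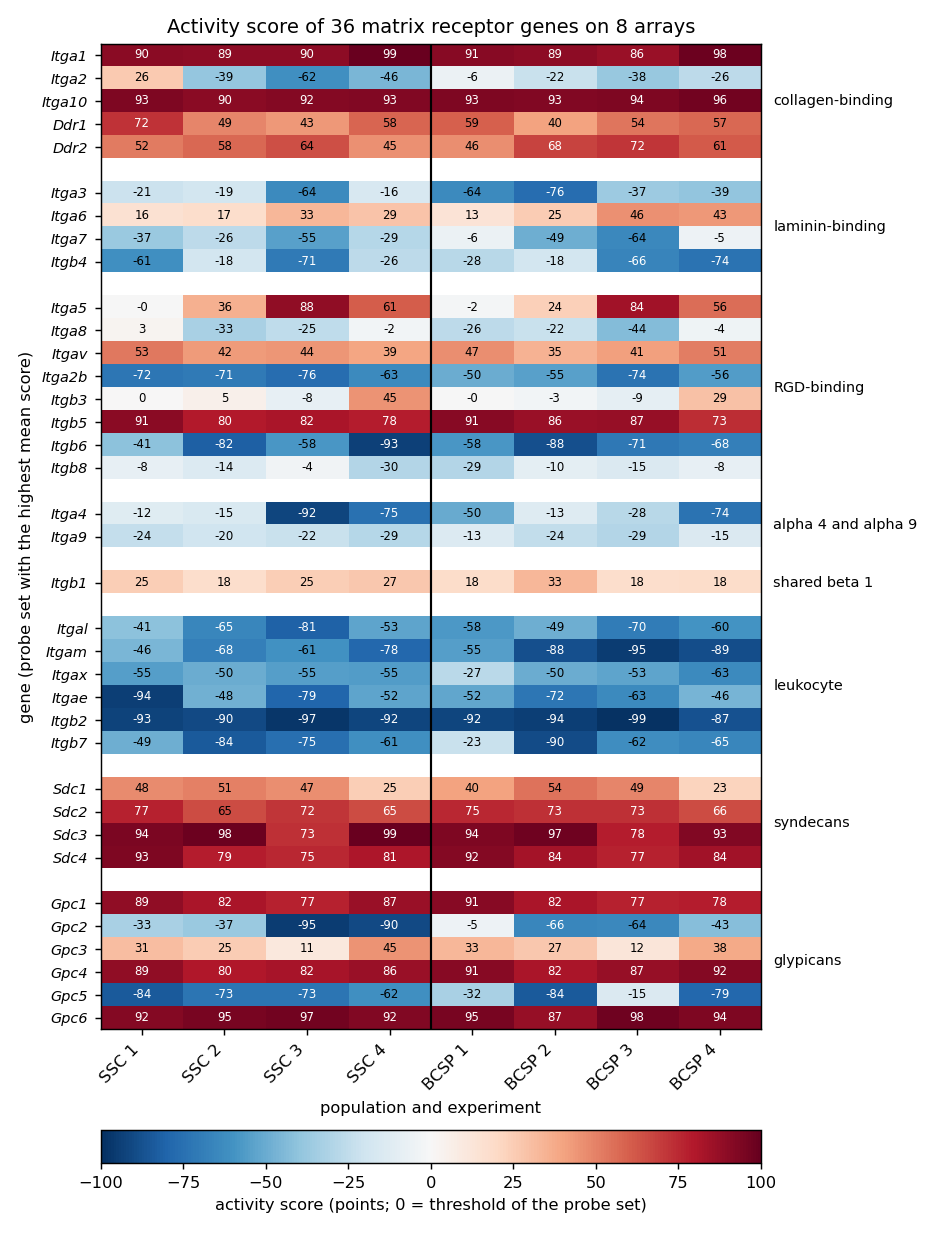
Activity score (points) of the 36 receptor genes, one row per gene grouped by ligand class, on the 4 SSC arrays (left) and the 4 BCSP arrays (right), numbered by experiment, with red above and blue below the threshold of 0. Rows are either red or blue throughout in 32 of 36 genes, and the left and right blocks look alike.

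The promoters of 4 genes stand for these patterns: Itga10 and Itgb5 (above 0 on all arrays), Itga5 (on 6) and Itgam (on none). Shown are the 120 bases before the transcription start from RefSeq (GRCm38.p6), on the strand of the gene, at chr3:96645464-96645583 (+), chr16:33829545-33829664 (+), chr15:103366792-103366911 (-) and chr7:128062520-128062639 (+). Capitals mark, on either strand, the GC box GGGCGG, a known binding motif of Sp1, and the core GAGGAA bound by PU.1, a transcription factor of myeloid cells. The 2 motifs share no match in these stretches.
Itga10: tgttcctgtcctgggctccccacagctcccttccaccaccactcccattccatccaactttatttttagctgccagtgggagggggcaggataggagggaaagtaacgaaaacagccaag
Itgb5: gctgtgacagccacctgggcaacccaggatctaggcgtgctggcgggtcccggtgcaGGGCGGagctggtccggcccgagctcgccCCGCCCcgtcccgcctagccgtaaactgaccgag
Itga5: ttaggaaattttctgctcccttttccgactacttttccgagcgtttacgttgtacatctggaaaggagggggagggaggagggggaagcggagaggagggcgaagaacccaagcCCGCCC
Itgam: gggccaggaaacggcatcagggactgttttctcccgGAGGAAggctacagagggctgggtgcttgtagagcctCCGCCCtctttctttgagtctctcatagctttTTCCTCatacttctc
Over the 250 bases before the start, both strands, RefSeq promoters were at hand for 26 of the 36 genes (31 promoters). The GC box was found in 10 of 15 promoters (66.7%) of receptor genes above 0 on all arrays and in 6 of 13 (46.2%) of those above 0 on none. It was found in 60.5% and 38.5% of the promoters of all measured genes in the same 2 categories, and in 32.7% of all promoters. The PU.1 core was in 4 of 15 (26.7%) and 5 of 13 (38.5%) promoters of the receptor genes, against 23.3% of all promoters, and in 1 of the 3 leukocyte integrin promoters, that of Itgam. These matches describe the letters of the window and not bound sites.

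The collagen-binding class had the highest median score of the classes that hold several integrin chains, at 55.7 in SSCs and 61.8 in BCSPs. These medians fell on the discoidin domain receptors, Ddr1 in SSCs and Ddr2 in BCSPs, and not on an integrin. Itga10, the alpha chain of the cartilage receptor for collagen II, scored 93.1, 90.1, 92.2 and 92.7 in the SSCs of experiments 1 to 4, against 93.1, 92.7, 93.5 and 96.2 in the BCSPs. Itga1, whose chain pairs with beta 1 to bind collagen IV and other collagens, scored 89.98, 89.2, 89.8 and 98.5 in SSCs, against 90.8, 89.5, 86.01 and 98.1 in BCSPs. Both genes were near the top of the scale on every array, and the 2 populations overlapped. The discoidin domain receptors were lower. Ddr1 scored 72.3, 48.98, 43.2 and 58.3 in SSCs, against 59.5, 40.05, 53.5 and 57.2 in BCSPs. Ddr2, a receptor for fibrillar collagens that is needed for normal long bone growth in mice, scored 51.7, 57.7, 64.1 and 45.5 in SSCs, against 46.3, 67.9, 71.6 and 61.4 in BCSPs. Neither population was uniformly the higher one for either gene. Itga2, the collagen receptor chain of platelets and epithelia, was above 0 on 1 array only, the SSC array of experiment 1 at 26.1, and between -61.7 and -6.11 on the other 7.

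Of the laminin-binding chains, Itga6 alone was above 0 throughout. This chain, which pairs with beta 1 or with beta 4, scored 15.6, 17.3, 33.4 and 28.7 in SSCs, against 13.4, 25.2, 46.03 and 43.03 in BCSPs. The arrays of experiments 3 and 4 were higher than those of experiments 1 and 2 in both populations, which overlapped. Its beta 4 partner of epithelial hemidesmosomes, Itgb4, stayed below 0, at -70.5 to -18.4 in SSCs and -73.7 to -18.1 in BCSPs. Itga7, the laminin receptor chain of skeletal muscle, lay at -54.6 to -26.2 in SSCs and -64.4 to -5.07 in BCSPs. Itga3, which serves epithelia, scored -21.4, -18.7, -64.01 and -16.2 in SSCs, against -63.8, -76.4, -36.7 and -39.2 in BCSPs. For Itga3, SSCs were the higher population in 3 of 4 experiments and the lower one in experiment 3, and the ranges overlapped. The skeletal muscle markers (0 of 6) and the epithelial markers other than Epcam (1 of 6, Epcam on all arrays) were above 0 on no array.

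Itgb1, the beta chain shared by most matrix-binding alpha chains, was moderate in score. It scored 24.5, 17.96, 24.8 and 26.8 in SSCs, against 18.03, 33.2, 17.8 and 18.4 in BCSPs. A single BCSP array, that of experiment 2, was higher than the rest. On its other 5 probe sets the gene averaged between -64.0 and -22.7, and only 1 of them was above 0 on any array, on 1.

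The RGD-binding chains ranged over nearly the whole scale. Itgb5, a vitronectin receptor chain, scored 90.5, 79.5, 81.9 and 78.2 in SSCs, against 91.4, 86.1, 87.1 and 73.5 in BCSPs. Its alpha partner Itgav, whose protein CD51 was a positive gate of both sorts, scored 52.7, 42.3, 43.8 and 39.1 in SSCs, against 46.8, 34.5, 41.01 and 51.4 in BCSPs. Both were above 0 on every array of both populations, with overlapping ranges. Itga5, the alpha chain of the main fibronectin receptor, scored -0.04, 35.8, 88.3 and 60.6 in SSCs, against -1.76, 23.8, 83.8 and 55.8 in BCSPs. It was just below 0 in both populations of experiment 1 and highest in both of experiment 3. Itgb3, known from osteoclasts and platelets, scored 0.13, 5.15, -8 and 44.98 in SSCs, against -0.24, -2.96, -9.04 and 28.99 in BCSPs, so that only experiment 4 lay clearly above 0. Itga8, a receptor chain for nephronectin, was above 0 on the SSC array of experiment 1 alone (3.07) and between -43.6 and -2.38 elsewhere. Itgb8, an activator of latent TGF-beta as alpha v beta 8, lay a little below 0 at -29.6 to -3.87 in SSCs and -29.3 to -7.99 in BCSPs. Itgb6, its epithelial counterpart, was far below 0 at -93.4 to -40.6 in SSCs and -87.97 to -58.2 in BCSPs. Itga2b, the platelet fibrinogen receptor chain, scored -75.9 to -63.3 in SSCs and -73.8 to -49.9 in BCSPs. Of 5 platelet markers, Gp1bb was above 0 on all arrays and the other 4 on none.

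Itga4, which binds VCAM1 and fibronectin, and Itga9, which binds tenascin, were below 0 on every array. The scores of Itga4 were widely spread, at -91.8 to -12.3 in SSCs and -74.1 to -12.6 in BCSPs, while those of Itga9 were close together, at -28.6 to -19.6 in SSCs and -29.2 to -13.3 in BCSPs.

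The leukocyte integrins formed the lowest class, with a median of -65.3 in SSCs and -59.3 in BCSPs. Itgb2, the beta chain that all beta 2 integrins of white blood cells share, scored -92.5, -90.2, -97.3 and -92.2 in SSCs, against -91.6, -94.3, -98.8 and -86.9 in BCSPs. No array of either population was above -86 points for this gene. Itgam, the alpha chain of the Mac-1 receptor of neutrophils and macrophages, scored -45.97, -68.4, -60.6 and -78.5 in SSCs, against -54.9, -88.1, -94.7 and -88.5 in BCSPs. SSCs were the higher population in all 4 experiments, with every score below 0 and overlapping ranges. Itgal (the LFA-1 alpha chain), Itgax (a dendritic cell chain), Itgae (the E-cadherin receptor of T cells in epithelia) and Itgb7 (the gut homing beta chain) spanned -94.3 to -22.5 over the 8 arrays. Both sorts excluded CD45. Macrophage markers (0 of 6) and neutrophil markers (0 of 5) were above 0 on no array, with summed scores of -383 to -333 in SSCs and -406 to -344 in BCSPs for macrophages. The neutrophil sums were -347 to -240 in SSCs and -394 to -260 in BCSPs. Of 5 lymphocyte markers, Ighm alone was above 0, on 1 BCSP array.

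All 4 syndecans were above 0 on every array. Sdc3, known from neural tissue and developing limb cartilage, scored 94.3, 98.3, 72.96 and 98.8 in SSCs, against 93.7, 96.95, 78.5 and 92.8 in BCSPs. Sdc4, the syndecan of focal adhesions, scored 93.05, 78.9, 75.05 and 80.7 in SSCs, against 91.8, 83.5, 77.3 and 83.7 in BCSPs. Sdc3 was lowest on both arrays of experiment 3, and Sdc4 was highest on both arrays of experiment 1. The other probe sets of Sdc3 averaged 49.6 and -14.1 points, and neither was lowest in experiment 3. Sdc2, the mesenchymal syndecan, was steadier, with 77.01, 64.9, 71.5 and 65.2 in SSCs, against 75.04, 73.2, 73.03 and 65.5 in BCSPs. Sdc1, best known from epithelia and plasma cells, scored 47.6, 50.7, 46.8 and 24.7 in SSCs, against 39.9, 54.5, 48.8 and 22.5 in BCSPs. Its mean score was the lowest of the family, and its smallest score came from experiment 4 in both populations.

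Among the glypicans, Gpc6, Gpc4 and Gpc1 were high. Gpc6, whose loss causes short limbs in humans, scored 92.1, 94.9, 96.8 and 92.5 in SSCs, against 95.2, 86.7, 97.6 and 93.6 in BCSPs. Gpc4 scored 89.04, 79.96, 82.2 and 86.5 in SSCs, against 91.1, 81.9, 87.1 and 91.8 in BCSPs. SSCs were the lower population for Gpc4 in all 4 experiments, with differences of -5.27 to -1.94 points, and the ranges overlapped. Gpc1 scored 88.8, 81.7, 77.1 and 86.6 in SSCs, against 90.9, 81.8, 77.3 and 78.5 in BCSPs. Gpc3, a hedgehog inhibitor whose loss causes overgrowth in humans and mice, was lower, with 31.2, 25.2, 10.7 and 45.1 in SSCs, against 32.9, 26.7, 12.3 and 37.96 in BCSPs. Experiment 3 gave the lowest Gpc3 score in both populations. Gpc2, a glypican of developing neurons, and Gpc5 were below 0 on every array, at -95.2 to -32.7 in SSCs and -65.6 to -4.81 in BCSPs for Gpc2 and -83.95 to -61.5 in SSCs and -84.3 to -14.5 in BCSPs for Gpc5.

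Probe sets of one gene often disagreed about its side of the threshold. Of the 22 genes with several probe sets, 10 had all of them on the same side on every array. In 6 genes (Itga1, Ddr1, Itgav, Itgb1, Sdc1 and Sdc2) at least 1 probe set was above 0 on all arrays and at least 1 other on none. The split was uneven, with 3 of 4 probe sets of Sdc2 above 0 on all arrays and 4 of 6 of Itgb1 on none. The second probe set of Itga1 averaged -54.4, and the lowest of Itgav -91.2. Ddr1 had 8 probe sets, whose averages ran from -59.2 to 54.1. Calls that every probe set shared were therefore fewer. With all probe sets above 0 on all arrays remained 7 genes, namely Itga10, Itgb5, Sdc4, Gpc1, Gpc3, Gpc4 and Gpc6, of which Itga10, Gpc1 and Gpc3 had only 1 probe set. The shares of all genes under these probe set rules are not given here. The counts therefore do not tell whether receptor genes differ from other genes in this respect. The 4 probe sets of Itgb5 averaged between 43.4 and 83.5, and the 5 of Gpc6 between 73.7 and 93.7. All 16 genes called above 0 on no array had no probe set above 0 on any array, 6 of them with several probe sets. This follows largely from using the highest-scoring probe set, since the others had lower means. It is therefore no separate support for those calls.

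**Figure D2:**
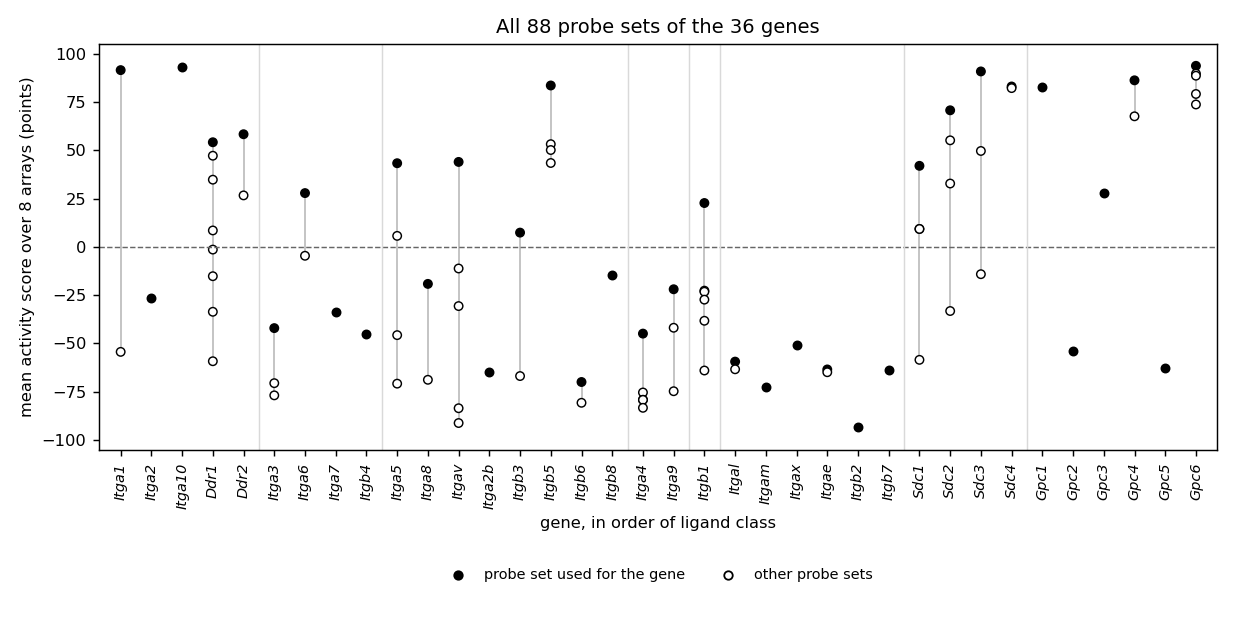
Mean activity score over the 8 arrays (points) of each of the 88 probe sets, by gene in the order of the ligand classes, with the probe set used for the gene filled and the others open. The open points of Itga1, Itgav and Itgb1 lie below 0 while the filled ones lie above, whereas all points of Itgb5, Gpc4 and Gpc6 lie above 0.

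Integrins work as pairs, so both chains of 22 known heterodimers with measured chains were read together. Both chains were above 0 on all 8 arrays for 5 pairs: alpha 1 beta 1, alpha 6 beta 1, alpha 10 beta 1, alpha v beta 1 and alpha v beta 5. The pair alpha 5 beta 1 had both chains above 0 on 6 arrays, alpha v beta 3 on 4, and alpha 2 beta 1 and alpha 8 beta 1 on 1 each. The other 13 pairs, among them all leukocyte pairs, alpha 6 beta 4 and the platelet pair alpha IIb beta 3, had both chains above 0 on no array. Every pair with beta 1 rests on the 1 probe set of Itgb1 that was above 0 on all arrays. Likewise, the pairs of alpha v rest on 1 of 5 probe sets of Itgav, and those of alpha 1 and alpha 6 on 1 of 2 each. Itgav (CD51) was also a positive gate of both sorts.

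The ligands of the receptors and their adaptors inside the cell were described in the same way. Listed genes without a probe set annotated with their symbol alone, such as Spp1, Fbn1 and Ptk2, were left out. Of 11 collagen chains, 9 were above 0 on all arrays, led by Col11a1 at 99.8 ± 0.14 in SSCs and 99.96 ± 0 in BCSPs (SD, n = 4 each), Col9a1 at 99.6 ± 0.32 in SSCs and 99.7 ± 0.15 in BCSPs and Col6a1 at 96.8 ± 3.36 in SSCs and 98.1 ± 2.40 in BCSPs. The other 2 were the basement membrane chains Col4a1 and Col4a2, below 0 on every array. Of 13 listed ligands of RGD-binding integrins, chosen by receptor and not by an RGD tripeptide of their own, 10 were above 0 on all arrays. Fibronectin itself, Fn1, was at 99.8 ± 0.17 in SSCs and 99.9 ± 0.08 in BCSPs. Mfge8, a milk fat globule protein that binds alpha v integrins, averaged 98.4 ± 0.98 in SSCs and 98.5 ± 0.64 in BCSPs, and Ccn2, a matricellular growth factor, 97.6 ± 1.05 in SSCs and 98.3 ± 0.95 in BCSPs. Vtn and Npnt, the ligands vitronectin and nephronectin, were above 0 on no array. Laminin chains were above 0 on all arrays in 3 of 9 cases, Lama4 at 65.8 ± 8.64 in SSCs and 64.2 ± 12.4 in BCSPs, Lamb2 at 50.9 ± 23.2 in SSCs and 34.7 ± 19.7 in BCSPs and Lamb1 at 13.98 ± 6.52 in SSCs and 19.2 ± 4.09 in BCSPs. Ligands of leukocyte integrins were above 0 throughout in 3 of 9 cases, namely Jam2, Vcam1 and Jam3.

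Of 28 integrin adaptors and kinases, 10 (35.7%) were above 0 on all arrays, against 25.0% of all genes, and 10 on none. The scaffold Bcar1 (p130Cas) averaged 86.4 ± 4.59 in SSCs and 87.6 ± 6.21 in BCSPs, the kindlin Fermt2 81.4 ± 6.89 in SSCs and 82.1 ± 8.60 in BCSPs, and the tensin Tns3 67.5 ± 4.93 in SSCs and 69.5 ± 3.57 in BCSPs. Tln2 was above 0 on all arrays and the other talin gene, Tln1, on none, as was Fermt3, the kindlin of blood cells. Of 10 other collagen and matrix receptors, 7 were above 0 on all arrays. Cspg4 (NG2), a proteoglycan of pericytes and cartilage, averaged 98.97 ± 1.39 in SSCs and 98.8 ± 0.96 in BCSPs, the collagen uptake receptor Mrc2 76.3 ± 22.2 in SSCs and 79.9 ± 10.02 in BCSPs, and dystroglycan, Dag1, 62.2 ± 18.5 in SSCs and 59.4 ± 16.7 in BCSPs. Lair1 and Gp6, collagen receptors of leukocytes and platelets, were above 0 on no array.

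**Figure D3:**
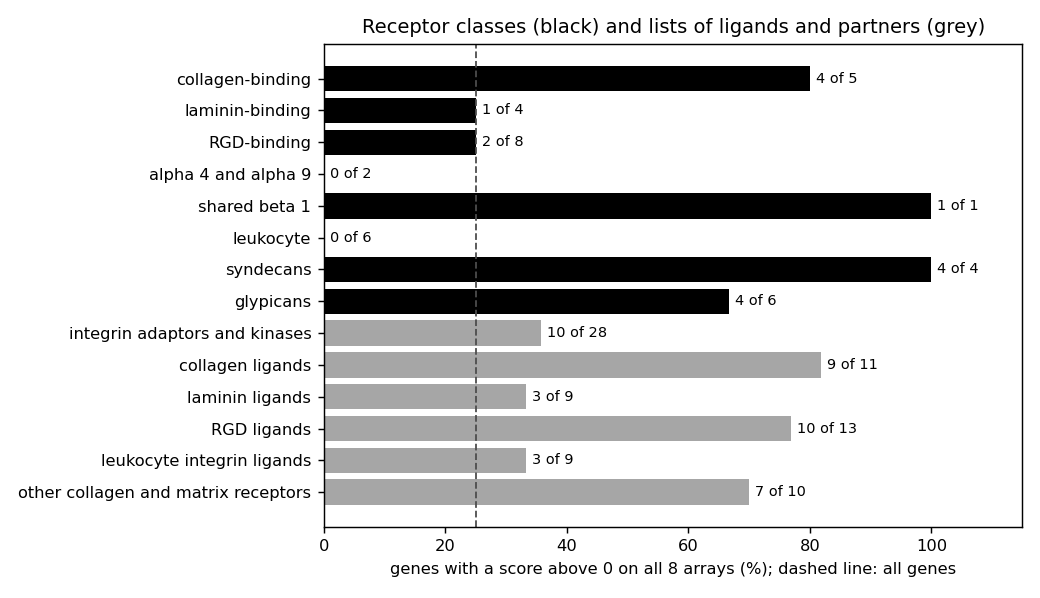
Percentage of genes with a score above 0 on all 8 arrays, for the 8 receptor classes (black) and the 6 lists of ligands, adaptors and other receptors (grey), with the counts printed beside the bars. The dashed line is the 25.0% of all genes. The collagen receptors, syndecans, collagen ligands and ligands of RGD-binding integrins (RGD ligands) lie well to its right, while the leukocyte integrins and the alpha 4 and alpha 9 chains lie at 0.

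SSCs and BCSPs were then compared for each gene over the 8 arrays with limma, as SSC minus BCSP. No receptor gene passed the adjusted threshold of 0.05, and neither did any of the 18193 genes (0.0%). All 36 receptor genes had an adjusted p of 1 by limma. At an unadjusted limma p under 0.05, 0 of 36 receptor genes and 465 of all genes (2.56%) were counted, and the smallest unadjusted limma p of a receptor gene was 0.123, that of Itga3. The 4 SSC and 4 BCSP arrays did not overlap for 0 of 36 receptor genes, against 0.544% of all genes with SSCs higher and 0.797% with SSCs lower. At the level of probe sets, 0 of 88 had populations that did not overlap, against 1.43% of all probe sets. SSCs were higher in all 4 experiments for 3 receptor genes, Itga5, Itgb3 and Itgam (4.38% of all genes), and lower in all 4 for 2, Itga2b and Gpc4 (8.03% of all genes). Other probe sets of these genes did not share that direction. A second probe set of Itga5 was lower in SSCs in all 4 experiments, with a mean difference of -15.0 points, the second of Itgb3 was higher in SSCs in 1 of 4 experiments, and the second of Gpc4 had a mean difference of 1.29 points. Itgam and Itga2b had 1 probe set each. With the experiment as a replicate block in the limma fit, the adjusted threshold was again passed by 0 genes. At an unadjusted limma p under 0.05 the blocked fit counted 949 genes (5.22%), 2 of them receptor genes. These were Itgam with SSCs higher (1.93% of all genes in that direction) and Gpc4 with SSCs lower (3.28%).

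The differences of the genes above 0 throughout were small. Their median absolute difference was 1.76 points, against 3.09 points for all genes above 0 throughout, and the largest was that of Itga6 at -8.16 points (95% confidence interval -33.3 to 17.01). The limma intervals were narrow near the top of the scale, where the score levels off. For Itga10 the difference was -1.86 points (-5.47 to 1.74), for Gpc6 0.78 points (-4.90 to 6.46), for Gpc4 -3.55 points (-10.5 to 3.36) and for Itga1 0.78 points (-6.31 to 7.88). With the replicate block the interval of Gpc4 was -6.95 to -0.147 points, which leaves out 0, at an adjusted limma p of 0.928. Other genes had wider intervals in the fit without the block. Itga5 averaged 46.2 ± 37.5 in SSCs and 40.4 ± 37.3 in BCSPs (SD, n = 4 each), a difference of 5.74 points with an interval of -45.8 to 57.3. Its differences within experiments 1 to 4 were 1.72, 12.0, 4.44 and 4.81 points, and with the replicate block its interval was -6.39 to 17.9 points. Itgb1 averaged 23.5 ± 3.84 in SSCs and 21.9 ± 7.57 in BCSPs, with an interval of -20.1 to 23.5 points, and of -18.4 to 21.7 points with the block. Among the genes below 0, Itga3 averaged -30.1 ± 22.7 in SSCs and -54.01 ± 19.3 in BCSPs, with a difference of 23.9 points (-7.95 to 55.8), and Itgam -63.4 ± 13.7 in SSCs and -81.5 ± 18.01 in BCSPs, with 18.2 points (-6.16 to 42.5). With the block the interval of Itgam was 0.62 to 35.7 points, which leaves out 0, at an adjusted limma p of 0.928. The median difference over the 36 genes was -0.60 points, against -0.998 over all genes, with 17 means higher and 19 lower in SSCs.

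**Figure D4:**
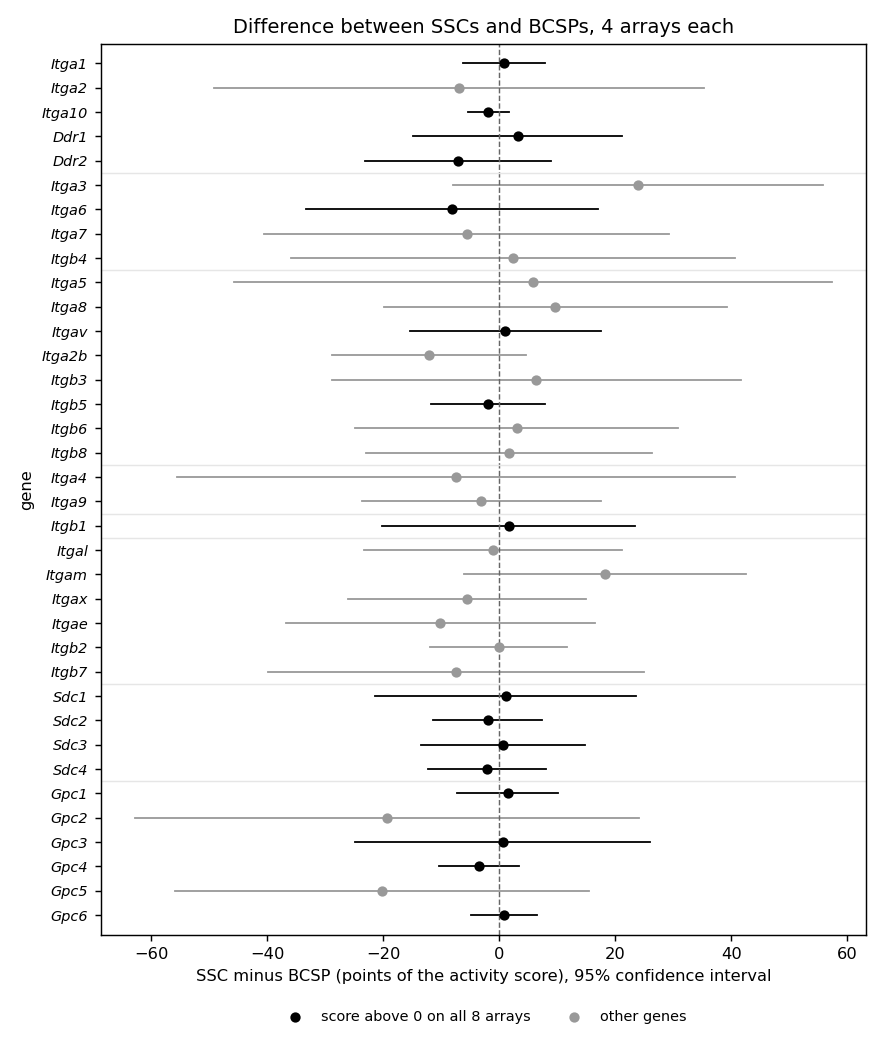
SSC minus BCSP in points of the activity score for the 36 receptor genes, in the order of the ligand classes. The 95% confidence intervals are from limma without the replicate block. Genes above 0 on all 8 arrays are in black and the others in grey. All intervals include 0, and the shortest are those of Itga10 and Gpc6.

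In the ligand and adaptor lists no gene passed the adjusted limma test either. The smallest unadjusted p there belonged to Col4a1, which averaged -66.5 ± 4.797 in SSCs and -13.3 ± 9.08 in BCSPs (SD, n = 4 each), with populations that did not overlap and an adjusted limma p of 1. Col4a2 averaged -67.1 ± 8.13 in SSCs and -44.99 ± 13.7 in BCSPs, again without overlap. Icam2, a ligand of the LFA-1 integrin that endothelium carries, averaged -86.4 ± 9.02 in SSCs and -53.3 ± 20.9 in BCSPs, and Sharpin, an inhibitor of integrin activation, -16.9 ± 13.8 in SSCs and 14.1 ± 18.3 in BCSPs, both without overlap and both with an adjusted limma p of 1. The first 3 of these genes were below 0 on all arrays of both populations. Col4a1, Col4a2, Icam2 and Sharpin were named because their p was among the smallest of their lists, which favours genes without overlap. Over all genes, 0.797% had populations without overlap and SSCs lower. Endothelial markers were above 0 on no array (0 of 8), and their summed score was -614 to -575 in SSCs and -568 to -362 in BCSPs. The markers did not share a direction. Cdh5 and Pecam1 had higher means in SSCs, by 28.6 and 3.36 points. The other endothelial markers had lower means in SSCs, led by Robo4 at -39.55 and Emcn at -32.6 points. The part of endothelial cells in the values of Col4a1, Col4a2 and Icam2 was not tested.

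The experiments were compared as well. An F test of the 4 experiments beside the population term in limma called 250 of 18193 genes (1.37%) and 1 receptor gene, Itga5, at an adjusted p of 0.0361. Without the mean-variance trend, or without both arrays of any 1 experiment, the same limma test called 0 genes. The experiment means of Itga5 were -0.90, 29.8, 86.1 and 58.2 points in experiments 1 to 4, and in each experiment the SSC and BCSP arrays lay within 12.0 points of each other. At an unadjusted limma p under 0.05 stood 10 receptor genes (26.7% of all genes). The next genes did not pass, with an adjusted p from limma of 0.0547 for Sdc3, 0.0702 for Sdc4 and 0.0803 for Itga1. With the mean of probe sets, the adjusted limma p was 0.713 for Sdc3, 0.116 for Sdc4 and 0.217 for Itga1. Sdc3 had experiment means of 94.0, 97.6, 75.7 and 95.8 points, and Sdc4 of 92.4, 81.2, 76.2 and 82.2 points. Itgb1, with means of 21.3, 25.6, 21.3 and 22.6 points, had an adjusted limma p of 0.988.

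The Itga5 call belonged to 1 of its 4 probe sets, which was also the only one called among the 88 when every probe set was tested (0.995% of all probe sets). A second probe set was above 0 on 5 arrays with an average of 5.69 points, and the other 2 averaged -45.7 and -70.8 points and were above 0 on no array. With the mean of the 4 probe sets, the adjusted limma p of Itga5 was 0.75. Without both arrays of experiment 1, 2, 3 or 4 it was 0.123, 0.0795, 0.283 and 0.0587, and without the mean-variance trend of the limma fit 0.107. The gap between the 3′ and 5′ control probe sets of actin was taken in activity scores, each relative to the range of its own probe set. It is therefore only an indirect sign of RNA quality and amplification. This gap was widest in experiment 3, at 59.6 points on its SSC array and 64.9 on its BCSP array. It was 23.1 to 36.6 points on the other SSC arrays and 25.7 to 44.2 on the other BCSP arrays. For Gapdh the same gap was widest in experiment 4 among BCSPs and alike in experiments 3 and 4 among SSCs, at 21.3, 25.9, 54.7 and 53.9 points on the SSC arrays of experiments 1 to 4 and 21.6, 44.2, 49.1 and 71.9 points on the BCSP arrays. The part of either gap in the values of Itga5, Sdc3 and Sdc4 was not tested.

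**Figure D5:**
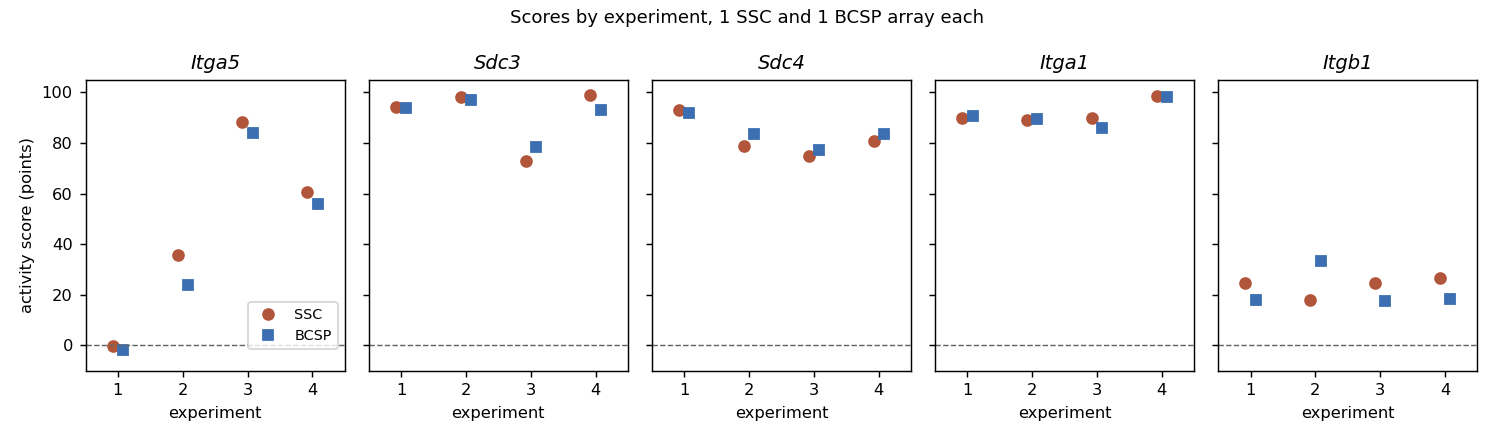
Activity score (points) of Itga5, Sdc3, Sdc4, Itga1 and Itgb1 by experiment, with SSCs as circles left of BCSPs as squares, 1 array each, and a dashed line at 0. The SSC and BCSP arrays of Itga5 move together from just below 0 in experiment 1 to above 80 points in experiment 3, while those of Itgb1 stay between 17.8 and 33.2 points.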

How the data were processed

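The authors amplified the RNA of the sorted cells, hybridized it to Affymetrix mouse arrays and had Gene Expression Commons scale each probe set against its Common Reference, with thresholds set by StepMiner. The deposited values are activity scores from -100.03 to 100 and were used as deposited. The method that summarised probes into probe sets was not given in the sources read. Of 45101 probe sets, 64 controls were left out, 34945 had 1 gene symbol, 932 had several and 9160 are not listed in the annotation.

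The probe set whose mean over the 8 arrays was highest stood for its gene, and every matching gene was named. From each other list, the 3 genes with the highest mean and those with the smallest p were eligible, and further list genes were named as examples after their values were seen. The comparison of populations used limma 3.58.1 (R 4.3.3) with a variance trend and without a block, and Benjamini-Hochberg adjustment over 18193 genes at a threshold of 0.05. Experiments were compared with an F test beside the population term. Exact permutation tests over 70 assignments had been planned for receptor genes without overlap, of which there were 0. Fits were also run on simulated scores. These lacked the experiment offsets and the limits of the scale seen in the real arrays, so they do not show how the fits perform here. Members, classes and lists were chosen with earlier results of these data known, and the integrin pairs were listed after values were seen.

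The labels number the BCSP array of experiment 2 as 3 in its title and as 2 in its description, and 2 was used. Each experiment supplied both arrays of a number, and deviations of same-numbered arrays correlated at 0.399, 0.177, 0.572 and 0.183, so the numbers were taken to pair the arrays. The labels do not state separate animals, though a figure legend names different mice, so p-values measure the spread between these samples, which may be that between mice. The number of arrays, 4 per population, limits the precision. Alternatives were a replicate block, quantile normalization, centring, filters on low scores, other choices of probe set, a fit without the trend, the t-test of the methods, array weights, an inverse normal scale, and leaving out arrays or experiments.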

Additional observations from a re-analysis of the deposited data

Results flagged for a closer look

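In 6 of 72 groups of 4 arrays (36 genes in SSCs and in BCSPs), the highest or lowest array stood apart from the others by Dixon's criterion. For independent, normally distributed values, about 1 of 20 groups meets this criterion. These groups share the same arrays and a score that levels off, and the share of all genes flagged is not given here. Whether 6 of 72 is more than usual was therefore not tested. In SSCs, Itga1 was 98.5 points in experiment 4, against 89.16 to 89.98 on the other arrays. Itga3 was -64.0 points in SSCs of experiment 3, against -21.4 to -16.2. Sdc1 was 24.7 points in SSCs of experiment 4, against 46.8 to 50.7. Itgax was -49.6 points in SSCs of experiment 2, against -55.5 to -54.8. In BCSPs, Itgb1 was 33.2 points in experiment 2, against 17.8 to 18.4, and Itgam was -54.9 points in experiment 1, against -94.7 to -88.1. The BCSP array of experiment 4 gave Itga1 98.1 points and Sdc1 22.5 points, so the other population of that experiment lay on the same side for both genes. The same held for Itgam, highest among SSCs in experiment 1 at -45.97 points. It did not hold for Itga3, highest among BCSPs in experiment 3 at -36.7 points, or for Itgb1, lowest among SSCs in experiment 2 at 17.96 points. For Itgax the BCSP array of experiment 2, at -49.8 points, was neither the highest nor the lowest.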

How the results depend on the processing

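The comparison of SSCs and BCSPs gave 0 receptor genes and 0 genes past the threshold under each of the 23 alternatives, and the lowest adjusted p of a receptor gene over 794 values was 0.928, that of the fit with the replicate block. The block changed no call at the adjusted threshold. The methods' t-test counted 440 genes and 0 receptor genes unadjusted, and 0 genes after adjustment. The sign of a difference changed under some alternative for 28 of 36 genes. The difference moved by more than 1 SD in 8 values of 7 genes, each under another choice of probe set. The number of receptor genes above 0 on all arrays was 16 after quantile normalization and without any 1 array, 18 against the 95th percentile of a list of genes restricted to other organs, 11 with the mean of probe sets and 7 when all probe sets had to pass. The comparison of experiments moved most. It called 426 genes and 3 receptor genes (Itga5, Sdc3 and Sdc4) after quantile normalization, 131 genes and 0 receptor genes with the mean of probe sets, and 0 genes and 0 receptor genes without the trend or without both arrays of any 1 of the 4 experiments. The cause was not tested, and leaving out an experiment also left fewer arrays. Over these settings the adjusted limma p of Itga5 ran from 0.0323 to 0.75. A score near either end of the scale leaves little room for a difference.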
